A study of Mus musculus with 19 samples.

Results

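Chemokines are small secreted proteins that direct the movement of leukocytes, and the genes described here encode the mouse chemokine ligands, their G protein-coupled receptors and the atypical receptors, which bind chemokines without signaling through G proteins. The members were chosen by name alone: protein-coding genes with the symbols of CC, CXC, CX3C or XC ligands or receptors, or of atypical chemokine receptors. This gave 66 of the 46078 genes in the table, of which 44 are ligand entries, 18 are receptors and 4 are atypical receptors, under 61 symbols. No library had a read for 9 of the 66. Of these, 7 lie on unplaced scaffolds and the other two are *Ccl21b* and *Ccl27b* on chromosome 4. They are copies of *Ccl21a*, *Ccl19* and *Ccl27a*, so the values of these genes are uncertain by the reads that copies share. Reads were found for 57 members, which are 35 ligands, 18 receptors and 4 atypical receptors. *Cxcl11*, *Ccl19-ps1* and *Ccl19-ps3* are annotated as pseudogenes and are not members. *Pf4* and *Ppbp* are chemokines that the name rule does not reach and are described with the other genes of the pathway.

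A chemokine is held on the extracellular matrix and on endothelium, and cells that carry a matching receptor move toward it. Inflammatory ligands are induced in epithelium, stroma and macrophages and draw neutrophils, monocytes, eosinophils or effector T cells, whereas homeostatic ligands such as *Cxcl12*, *Cxcl13*, *Ccl19* and *Ccl21* place lymphocytes and progenitors within tissues. In the mammary gland, chemokines bring in the macrophages and eosinophils that take part in growth of the ducts, and in mammary tumors they are made by tumor cells, fibroblasts and macrophages alike.

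The study asked how mutant p53 in stromal fibroblasts bears on mammary tumors driven by the neu oncogene, and RNA of whole tissue from female mice was sequenced. Tumors (T) and mammary glands free of malignant lesions (MG) came from tumor-bearing mice whose fibroblasts had wild-type (N) or mutant (NP) p53, and glands of age-matched wild-type mice (MG WT) were the normal control. The 19 samples were 4 from each of the tumor and gland groups N and NP and 3 from MG WT. T NP replicates 1 and 2 have sample names that share an animal number, and they entered as separate samples unless stated. By the sample records, MG WT mice were Wild Type, MG N replicate 1 and every T N tumor were MMTV-neu;Fsp-Cre, MG N replicates 2, 3 and 4 were MMTV-neu;p53wm-R172H/+ with no Cre, and all MG NP and T NP samples were MMTV-neu;p53wm-R172H/+;Fsp-Cre. The mice that carried these alleles had a mixed FVB/C57/BALB/c background, and the records give no ages. MMTV-neu is active in mammary epithelium, Fsp-Cre drives Cre recombinase in fibroblasts, and Cre turns the p53wm-R172H allele from wild-type into mutant p53. Since 3 of the 4 MG N glands carried the unconverted allele and no Cre while T N tumors carried Cre and no such allele, this difference cannot be told apart from that between tumor and gland.

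The values are normalized counts, which are the reads on a gene divided by a scaling factor for its library. Reads on genes ranged from 20899152 to 26373331 per library in MG N (median 23117630), from 21467242 to 26888814 in MG NP (24226917), from 23520971 to 27262440 in T N (24883534) and from 20972633 to 23234914 in T NP (22533156). MG WT libraries were deeper, with 54677315 to 62645459 (54753948). In what follows, values of a group are listed in the order of its replicates.

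Lists of marker genes showed which tissues the samples held, and a list's level is the sum of its normalized counts. The most abundant gene of a list is named by normalized counts, with no correction for gene length. Luminal epithelium (9 genes) summed to 96500.1 to 180837 in tumors, 8993 to 27566 in MG N and MG NP and 81081 to 96153 in MG WT. Its genes did not all move together. *Epcam* read 26506 to 45955.5 in tumors and 7748 to 10566 in MG WT. *Krt19* (33.7 to 1512 in tumors, 17055 to 21111 in MG WT) and *Foxa1* (1.1 to 121, 3605.5 to 5038) were far lower in tumors than in MG WT. Basal epithelium (7 genes) fell within 1339 to 4934 in tumors, 8810.5 to 22698 in MG N and MG NP and 57088 to 69995 in MG WT. White adipocyte markers (9 genes, *Fabp4* or Cfd most abundant in glands) summed to 140238 to 394053 in MG N and MG NP and to only 2106 to 3098 in MG WT, near the 679.6 to 7190.2 of tumors. The MG WT glands thus held little fat RNA for a mammary gland, and 4, 9 and 6 of the 9 adipocyte markers reached 10 normalized counts in them. Their comparisons with other glands carry this difference together with the difference in depth. Milk protein genes (6 genes, *Csn3* most abundant in tumors) summed to 82301 to 753596 in tumors, 2669 to 181805 in MG N and MG NP and 2922 to 5446 in MG WT.

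Within the glands, some libraries stood apart. Skeletal muscle markers (12 genes, *Myh4* most abundant in MG NP) summed to 352020.2, 2592393, 10825 and 1428909 in MG NP, so that replicates 2 and 4 were made up of these transcripts to 7.56% and 4.12%. The same list summed to 360.5 to 16294 in MG N, 151 to 179.5 in MG WT and 337 to 28096 in tumors. Brown adipocyte markers (6 genes) reached 1768 to 84066 in MG NP, with the highest in replicate 4, against 1094 to 2853 in MG N, 124 to 148 in MG WT and 332 to 2332 in tumors. T cell markers (10 genes, *Lck* or *Cd4* most abundant in most libraries) summed to 1570.5, 1571, 1735 and 6033 in MG N, and to 6870.1, 511, 7678 and 579.8 in MG NP. MG N replicate 4 and MG NP replicates 1 and 3 therefore held several times the T cell transcripts of the other glands of these groups. Many results that involve MG NP are also given without these 3 T cell-rich glands, or without the muscle-rich MG NP replicates 2 and 4, both sets having been chosen after the data were seen. Since the sets are complementary in MG NP, each leaves 2 of its glands.

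Lymphocyte and vessel markers were mostly lower in tumors than in glands. T cell markers summed to 250, 140.1, 391 and 148 in T N, 80.7, 388, 303 and 216 in T NP and 1064, 1515 and 993 in MG WT. B cell markers (9 genes, *Ms4a1* or *Cr2* most abundant in most libraries) summed to 7771, 138, 2002 and 9093 in MG N, 9146, 311, 16143 and 3089 in MG NP, 34.1, 29.5, 581 and 36.2 in T N, 32.5, 466, 64.9 and 37.5 in T NP and 1465, 2854 and 2408 in MG WT. NK cell markers (7 genes, *Gzma* or Prf1 most abundant in most libraries) ranged over 75.9 to 819 in MG N and MG NP, 30.0 to 159.9 in tumors and 115 to 215 in MG WT. Lymph node stroma and high endothelial venule markers (7 genes, *Glycam1* most abundant in most libraries) summed to 2759, 695, 1871 and 3732 in MG N, 5522, 694, 11502 and 229.9 in MG NP, 123, 17.9, 912 and 37.3 in T N, 97.5, 1052, 408 and 161 in T NP and 6312, 9698 and 11926 in MG WT. Among these, *Madcam1* was at 0 in every T N tumor and *Chst4* in every T NP tumor. MG NP replicate 2 also had *Chst4* at 0. In MG WT the sum was mostly *Glycam1* (4217, 9207 and 7973), with *Tnfsf11* at 1908 and 3658 in replicates 1 and 3. *Chst4* was likewise higher in MG WT (58.0 to 144) than in MG N (1.1 to 50.5). Not all genes followed the sum: *Madcam1* read 8.5, 28.8 and 21.2 in MG WT and 95.5, 6.9, 153 and 129 in MG N. *Ltb* read 115, 148 and 137 in MG WT and 312, 37.9, 196 and 1128 in MG N.

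All 10 macrophage markers reached 10 normalized counts in every library. Their sums were 4095, 4753 and 5005 in MG WT, 26805, 57878, 21789 and 32696 in MG N, 22677, 15118, 22438 and 17849.6 in MG NP, 12304, 10766, 20858 and 9314 in T N and 10477, 11894, 13256 and 15492 in T NP, with *Csf1r* the most abundant in MG WT, *Mrc1* in MG N and *C1qa* in tumors. Dendritic cell markers (7 genes, *Itgax* or *Zbtb46* most abundant in most libraries) ranged over 1078 to 1538 in MG WT, 1552 to 4800.4 in MG N and MG NP and 769 to 1526 in tumors. Neutrophil markers (8 genes) summed to 11266 in MG NP replicate 1, where *S100a9* was the most abundant, and to 128 to 1084 in all libraries outside MG NP, with *Ly6g* at 0 in 13 libraries. Endothelial markers (8 genes) summed to 17322 to 35560.5 in glands and 3707 to 6614 in tumors, and lymphatic endothelial markers (5 genes) to 1230.4 to 4739 and 224 to 1374. Fibroblast markers (8 genes, *Col3a1* most abundant in all but 1 library) summed to 145143, 487736, 277212 and 171897 in MG N, 66124, 77403, 153168 and 91693 in MG NP, 42763, 29049, 269331 and 38134 in T N, 26873, 37044, 55741 and 36229 in T NP and 39185, 64891 and 58436 in MG WT. In samples of whole tissue, fewer cells of a type and less RNA per cell cannot be told apart, and the part of these cell types in the chemokine results was not tested.

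**Figure D1:**
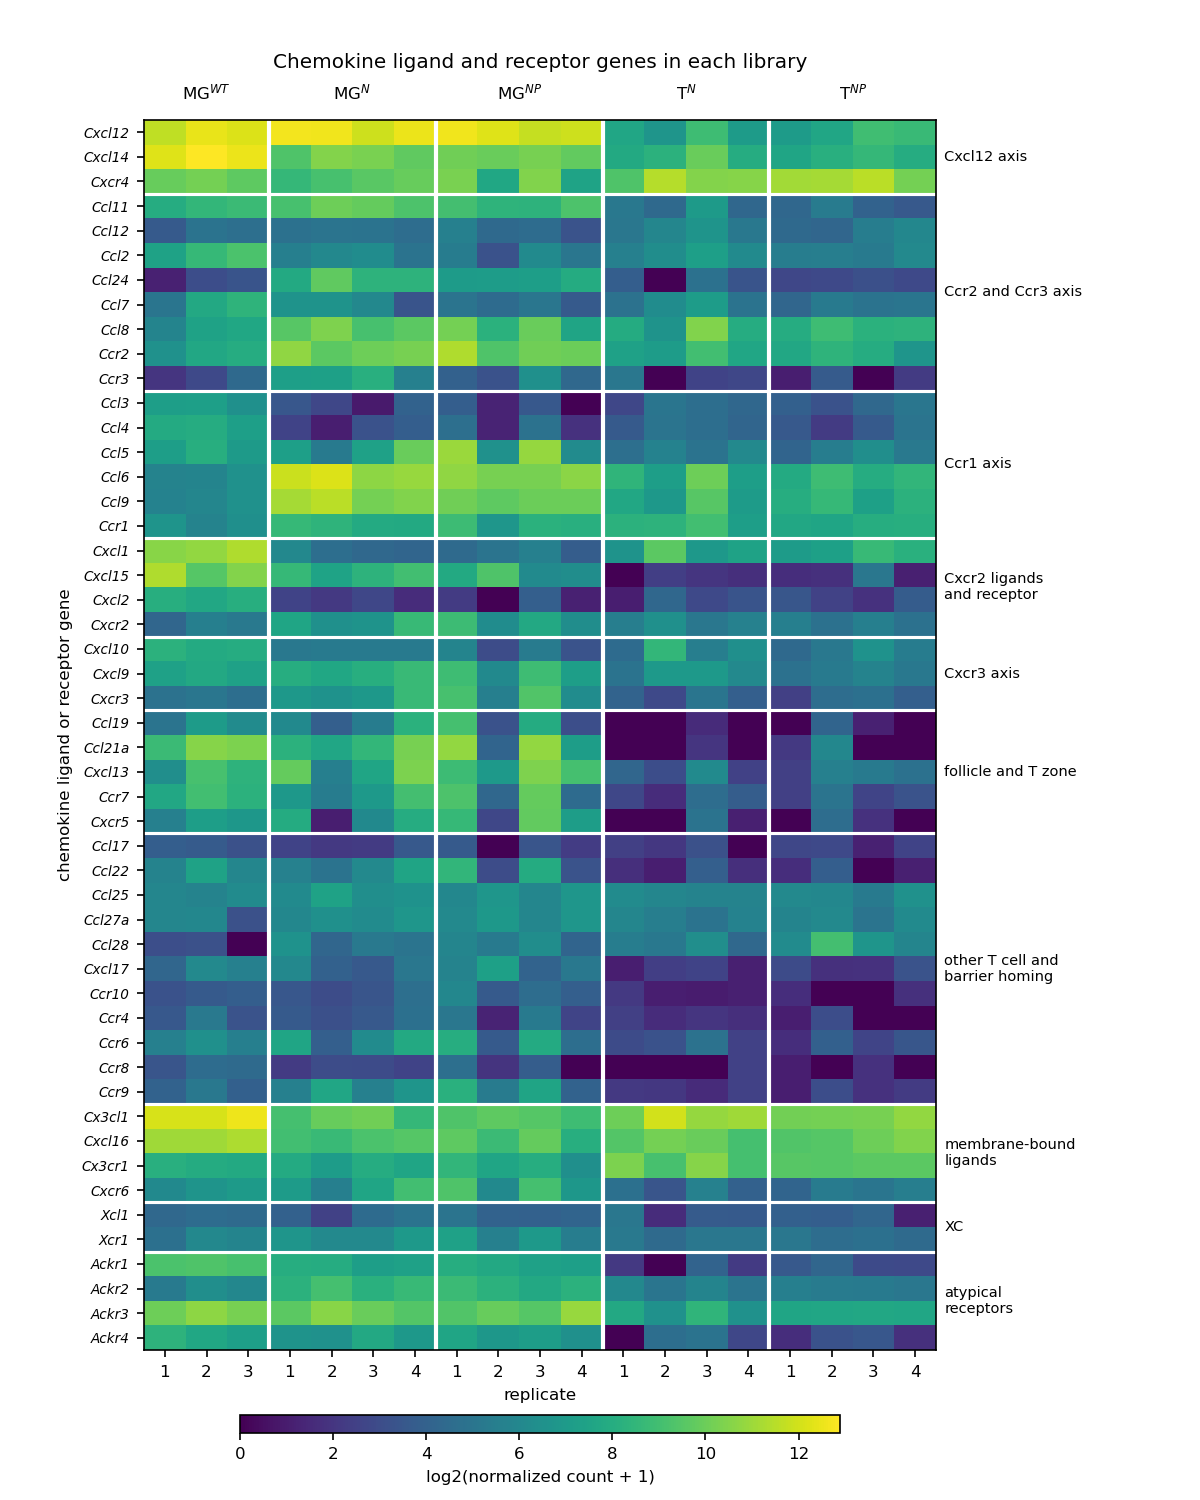
Each line is a member tested in at least 1 comparison, with 1 such member not shown, and each column 1 of the 19 libraries, grouped by the members' roles, with color for log2(normalized count + 1). *Ccl21a*, for example, runs from 0 in 5 of the 8 tumors to 1781 normalized counts in MG NP replicate 1.

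Levels of different members are compared only per kilobase of annotated exons (normalized counts per kb), as means with the SD over the samples of a group. *Cxcl14*, a ligand made by epithelium and fibroblasts, led the ligands in MG WT at 3354.2 ± 752.7 per kb (n = 3), followed by *Cx3cl1* at 1263.9 ± 252.0 and *Ccl21a* at 1240.2 ± 641.9, a pair that did not differ beyond its spread. In MG N the leaders were the CC ligands *Ccl6* (1692.8 ± 835.3, n = 4) and *Ccl8* (1689.9 ± 656.0). In MG NP they were *Ccl8* (1274.8 ± 946.8, n = 4), *Ccl21a* (1061.7 ± 1121.9) and *Ccl5* (1033.4 ± 1097.7), with spreads too wide to order them. By its mean *Ccl8* also led in T N (971.7 ± 1174.8, n = 4) and T NP (655.91 ± 191.17, n = 4), ahead of the membrane-bound *Cx3cl1* at 585.2 ± 332.0 and 341.7 ± 78.1. Its mean in T N rests on replicate 3, and *Cx3cl1* led in replicates 2 and 4. Among receptors, the *Cxcl12* receptor *Cxcr4* had the highest mean in every group, at 544.6 ± 92.3 in MG WT, 369.9 ± 138.5 in MG N, 423.2 ± 368.3 in MG NP, 881.7 ± 485.7 in T N and 1198.4 ± 423.3 in T NP. Next came *Ccr7* in MG WT (172.8 ± 73.5), *Ccr2* in MG N (177.4 ± 55.5) and *Cx3cr1* in T N (215.4 ± 107.4) and T NP (169.7 ± 7.3). In MG NP *Ccr7* (201.1 ± 228.0) and *Ccr2* (199.0 ± 129.0) were level. By library, *Ccr2* led the receptors in MG N replicate 1 and MG NP replicate 4. Summed over all ligands, a library held 1721.3 to 5961.8 per kb in tumors, 4416.5 to 12003.5 in MG N and MG NP and 9342.8 to 13136.6 in MG WT. The 4 atypical receptors summed to 40.5 to 138.7 per kb in tumors and 426.5 to 1032.0 in glands, with no overlap.

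Tests used limma, which fits a linear model to each gene's log2(normalized count + 1), and p-values were adjusted over all genes tested by the Benjamini-Hochberg method. A gene was tested when it reached 10 normalized counts in a number of samples no less than the size of the smaller group, and called at an adjusted p under 0.05 with at least a 2-fold change. A log2 fold change of 1 is thus a doubling, and its error is given as a standard error (SE) or a 95% interval. Of the 57 members with reads, 51 were tested in at least 1 of 6 pairwise comparisons and 44 were called in at least 1. The 6 tested in none were *Ccl1*, *Ccl26*, *Cxcl3*, *Cxcr1*, *Cxcl5*, which peaked at 19.0 normalized counts in T N replicate 2, and *Ccl20*, which peaked at 48.8 in MG N replicate 3. The 7 that were tested and never called were *Ccl12*, *Ccl17*, *Ccl25*, *Ccl27a*, *Ccr4*, *Ccr8* and *Xcl1*. A member that is low in 1 group may have passed the filter through the other, so counts of members below describe those tested and are not a share of the family.

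The comparison of T N with MG N asks how tumors differ from glands of mice with wild-type p53 in fibroblasts. More members tested were called lower than higher in the tumors, including the lymphoid ligands *Ccl21a* and *Ccl19*, the stromal ligand *Cxcl12*, the eosinophil ligands *Ccl11* and *Ccl24* with their receptor *Ccr3*, and the 4 atypical receptors. The few higher genes were the neutrophil ligand *Cxcl1*, the pair of *Cx3cl1* and its receptor *Cx3cr1*, and *Ccl4*. Of 46 members tested, 26 (56.5%) were called lower and 4 (8.7%) higher, where 22.3% of all genes tested were called lower and 12.8% higher. The median log2 fold change was -2.25 over the members and -0.05 over all 17950 genes tested. Receptors were lower in 9 of 14 tested and ligands in 13 of 28.

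*Cxcl1*, which recruits neutrophils through *Cxcr2*, read 63.7, 24.1, 19.7 and 17.5 normalized counts in MG N and 97.7, 805, 115 and 170.4 in T N. All tumors were above all glands, and T N replicate 2 was far above the other tumors. Its log2 fold change was 2.83 (SE 0.70, 95% interval 1.24 to 4.41, adjusted p = 0.00929), and 2.16 without T N replicate 2. *Cxcl15*, a lung-type ligand of the same chromosomal cluster, went the other way, with 392, 177, 324 and 503 in MG N and 0, 4.2, 3.0 and 2.3 in T N. No tumor came near a gland, and the log2 fold change was -6.82 (SE 0.56, adjusted p = 8.16e-05). *Cxcl2*, a further ligand of *Cxcr2*, was too low to be tested here, at 1.1 to 19.0 over the 8 libraries. *Cxcr2* itself read 192, 87.3, 97.7 and 413 in MG N and 44.3, 87.5, 33.3 and 49.0 in T N, where the highest tumor was level with the lowest gland. Its fall of -1.67 (adjusted p = 0.0268) was not called without MG N replicates 1 (-1.58) or 4 (-1.22) or without T N replicates 1 (-1.61), 3 (-1.47) or 4 (-1.65).

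*Cx3cl1* is a ligand anchored in the membrane of epithelium and endothelium, and *Cx3cr1* is its receptor on monocytes and tissue macrophages. *Cx3cl1* read 539, 946, 1090.3 and 383 in MG N and 1062, 4134, 1874 and 2129 in T N. Only the lowest tumor, replicate 1, fell within the range of the glands, just under MG N replicate 3, and the log2 fold change was 1.59 (SE 0.45, adjusted p = 0.0178). *Cx3cr1* rose with no overlap, from 237, 137, 253 and 193 in MG N to 1288, 565, 1479 and 548 in T N (log2 fold change 2.13, SE 0.38, adjusted p = 0.00192). The other membrane-bound ligand, *Cxcl16*, was not called (0.54), while its T cell receptor *Cxcr6* fell (-2.85, adjusted p = 0.0122), from 46.0 to 509.8 in MG N to 9.5 to 49.5 in T N.

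*Cxcl12* retains hematopoietic and immune cells near the stromal and endothelial cells that make it. It read 6388, 6376, 3784 and 5898 in MG N and 195, 104, 481 and 132 in T N. Every tumor was below a seventh of the lowest gland, with a log2 fold change of -4.85 (SE 0.44, 95% interval -5.84 to -3.85, adjusted p = 1.10e-04). Its scavenging receptor *Ackr3* fell by -2.58 (adjusted p = 0.00206), from 702 to 1534 in MG N to 91.0 to 349 in T N. *Cxcr4*, the signaling receptor, read 378, 566, 778 and 954 in MG N and 658, 2779.5, 1450.2 and 1489 in T N and was not called (1.16, adjusted p = 0.0531). *Cxcl14* was called lower at -1.47 (adjusted p = 0.0287) but not with edgeR (-1.24), nor without MG N replicates 2 (-1.29), 3 (-1.36) or 4 (-1.55) or without T N replicates 1 (-1.24), 2 (-1.40) or 4 (-1.29). Endothelial and fibroblast markers moved with *Cxcl12*, except that T N replicate 3 had a fibroblast sum of 269331 and *Cxcl12* at 481. That sum was mostly *Col1a1* (69617), *Col1a2* (73345) and *Col3a1* (118481). The other fibroblast markers of that tumor were below every MG N gland. *Dcn*, for example, read 3246 against 26974 to 32091, and *Pdgfra* 1423 against 9109 to 10803.

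Ligands of the eosinophil receptor *Ccr3* were among those that fell most. *Ccl24* read 227, 862, 324 and 319 in MG N and 13.6, 0, 27.3 and 9.3 in T N, with T N replicate 2 at 0, and its log2 fold change was -5.55 (SE 0.96, adjusted p = 0.00172), or -4.54 without that tumor and -6.15 without T N replicate 3. *Ccl11* read 563, 1067, 928 and 627 in MG N and 35.2, 20, 127 and 18.7 in T N (-4.37, adjusted p = 4.93e-04). The receptor *Ccr3* read 152, 162, 275 and 48.4 in MG N and 34.1, 0, 5.0 and 5.8 in T N (-4.46, adjusted p = 0.00601). *Ccr3* was -5.29 without T N replicate 1 and -3.58 without replicate 2, and *Ccl11* -4.96 without replicate 3. None of these 3 genes overlapped between tumors and glands. The monocyte receptor *Ccr2* also fell without overlap, from 807 to 1700.4 in MG N to 139 to 514 in T N (-2.39, adjusted p = 0.00168). Of the CC ligands grouped with *Ccr2* and *Ccr3* here, *Ccl2* (0.66), *Ccl7* (0.14), *Ccl8* (-1.43) and *Ccl12* (0.91) were not called. *Ccl8* ranged from 96.9 to 1391 among the T N tumors.

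Of the ligands of *Ccr1*, a receptor of macrophages and T cells, and of related receptors, the macrophage products *Ccl6* and *Ccl9* fell. *Ccl6* read 3739.6, 4816, 1687 and 1912 in MG N and 349, 149, 1050.3 and 151 in T N (-3.19, SE 0.64, adjusted p = 0.00344). *Ccl9* read 2261, 3054, 1163 and 1392 in MG N and 209, 115, 735 and 133 in T N (-3.05, SE 0.58, adjusted p = 0.00269). In both genes T N replicate 3, the tumor with the most macrophage and fibroblast transcripts of its group, was the highest tumor, still below every gland, and without it *Ccl6* was -3.79. *Ccl4* rose by 1.67 (adjusted p = 0.0457) from 5.1, 1.1, 8.5 and 13 in MG N to 11.4, 30.6, 24.2 and 17.5 in T N, in groups that overlapped. That call was lost without MG N replicates 1 (1.64), 2 (1.14) or 3 (1.85) or without T N replicates 2 (1.47), 3 (1.57) or 4 (1.72). It was also lost with a smaller pseudocount (1.79), with no filter (1.67), with edgeR (1.53) and with all groups in a single fit (1.67). *Ccr1* (0.02), *Ccl3* (1.37) and *Ccl5* (-2.11) were not called.

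Of the genes of lymphoid tissue, *Ccl21a* and *Ccl19* were near 0 in T N. *Ccl21a*, which guides Ccr7-positive T cells and dendritic cells, read 306, 200, 375 and 1201 in MG N and 0, 0, 3.0 and 0 in T N. All T N tumors together held 3 reads of it, a ratio of 638 (95% counting interval 218 to 3090), and its log2 fold change was -8.17 (adjusted p = 7.72e-05). *Ccl19*, the second *Ccr7* ligand, read 67.5, 13.8, 42.3 and 298 in MG N and 0, 0, 2.0 and 0 in T N, with 2 reads in all T N tumors and a ratio of 194 (counting interval 53.6 to 1600). *Ccr7* fell by -3.88 (adjusted p = 0.00533) and *Cxcl13*, the ligand of B cell follicles, by -4.33 (adjusted p = 0.0132). *Cxcl13* overlapped between the groups, at 932, 46.0, 188 and 1296 in MG N and 18.2, 7.4, 70.7 and 4.7 in T N. Its receptor *Cxcr5* read 246, 1.1, 68.6 and 252 in MG N and 0, 0, 29.3 and 1.2 in T N and was not called (-4.28, adjusted p = 0.059). MG N replicate 2, which had the fewest B cell transcripts of its group, was the lowest gland in each of these 5 genes. Without it *Cxcl13* was -5.26 and *Ccl19* -6.19, and without MG N replicate 4 these were -3.66 and -4.74, with *Ccr7* at -3.23. *Cxcl13* was -5.05 without T N replicate 3.

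Effector T cell receptors fell as well. *Cxcr3* read 116, 95.4, 118 and 425 in MG N and 15.9, 6.3, 31.3 and 14.0 in T N (-3.31, adjusted p = 0.00201), without overlap. Its interferon-induced ligand *Cxcl9* fell by -1.93 (adjusted p = 0.0082), while *Cxcl10* was not called (0.99), with 21.6, 372, 45.4 and 85.2 in the tumors. Homing genes of gut, skin and mucosa that fell were *Ccr9* (-4.33), *Ccl22* (-3.94), *Ccr6* (-2.98) and *Cxcl17* (-2.89), and so did *Xcr1* (-1.48), the receptor of cross-presenting dendritic cells. *Ccr6* was not called without MG N replicates 1 (-2.58) or 4 (-2.49) or T N replicate 4 (-2.68), and was -3.81 without MG N replicate 2. *Ccl22* was -4.55 without T N replicate 3. *Ccl25* (-0.71), *Ccl27a* (-0.83), *Ccl28* (0.09) and *Xcl1* (-0.44) were not called.

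All 4 atypical receptors were called lower, where 22.3% of all genes tested were called lower. Every tumor was below every gland in each of them, and the share of all genes without overlap is not given here. *Ackr1* carries chemokines across venules and binds them on red cells. It read 261, 252, 146 and 168 in MG N and 3.4, 0, 16.2 and 3.5 in T N (-5.55, SE 0.75, adjusted p = 5.74e-04). Without T N replicate 2, where it was at 0, *Ackr1* was -4.85, and without T N replicate 3 -6.22. Part of its exons, 361 bases, is shared on the same strand with *Cadm3*. *Ackr2*, a scavenger of inflammatory CC ligands in lymphatic endothelium, read 306, 542, 289 and 411 in MG N and 64.8, 31.6, 54.5 and 30.3 in T N (-3.10, adjusted p = 2.20e-04). *Ackr4*, a scavenger of *Ccl19* and *Ccl21*, read 96.8, 90.8, 219 and 114 in MG N and 0, 24.2, 29.3 and 5.8 in T N (-3.85, adjusted p = 0.0116), with T N replicate 1 at 0, -2.82 without that tumor and -4.46 without T N replicate 3.

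The same comparison in mice with mutant p53 in fibroblasts, T NP with MG NP, gave a similar list. *Cxcl1*, *Cx3cl1* and *Cx3cr1* were again higher, and *Cxcr4* was the other higher gene. The stromal ligand *Cxcl12*, the eosinophil genes, the macrophage ligands *Ccl6* and *Ccl9*, the lymphoid genes and the 4 atypical receptors were lower. Of 45 members tested, 27 (60.0%) were called lower and 4 (8.89%) higher, against 24.0% and 14.7% of all genes tested. The median log2 fold change was -2.16 over the members and -0.07 over the 17880 genes. Of the genes called lower, 24 were shared with the comparison of T N and MG N (92.3% of its 26 and 88.9% of the 27 here), and of those called higher 3 (3 of 4 in each).

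*Cxcl1* read 21, 30.0, 48.7 and 12.9 in MG NP and 133, 159, 412 and 289.7 in T NP. Tumors and glands did not overlap, and the log2 fold change was 3.10 (SE 0.49, 95% interval 1.99 to 4.22, adjusted p = 9.25e-04). It was 3.44 without the T cell-rich glands and 2.77 without the muscle-rich glands. *Cxcl15* read 229.9, 647, 71.5 and 77.5 in MG NP and 2.2, 2.4, 33.8 and 1.2 in T NP, where T NP replicate 3 stood far above the other tumors (-4.97, SE 1.0, adjusted p = 0.00316). Without that tumor its log2 fold change was -5.87, and without MG NP replicate 2 -4.33, and with the muscle covariate it was -3.16 and not called. *Cxcr2* fell by -2.10 (adjusted p = 0.0144), -1.09 without the T cell-rich and -3.11 without the muscle-rich glands.

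*Cx3cr1* read 363, 189.8, 258 and 83.9 in MG NP and 746, 728, 798 and 787 in T NP, a tight group of tumors above all glands (1.95, SE 0.39, adjusted p = 0.00323). Without the T cell-rich glands the change was 2.59, without the muscle-rich glands 1.32, and it was not called once the muscle score was a covariate (1.37, adjusted p = 0.142, range over its alternatives 3.90e-05 to 0.142). The muscle score of every MG NP gland lay above that of every T NP tumor, which limits all values given with this covariate. *Cx3cl1* read 653, 835, 720.3 and 469 in MG NP and 1148, 1191, 1233 and 1800.4 in T NP, also without overlap. Its change of 1.01 (SE 0.22, adjusted p = 0.00442) lay at the 2-fold threshold and fell under it without MG NP replicate 4 (0.85), without T NP replicate 4 (0.86) and without the muscle-rich glands (0.94). With the muscle covariate it was 1.08 and not called.

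*Cxcr4* read 1263, 206, 1416 and 177 in MG NP and 2182, 2258, 3047 and 1179.9 in T NP. The T cell-rich replicates 1 and 3 were level with the lowest tumor, and the muscle-rich replicates 2 and 4 were the low ones. Its change of 2.02 (SE 0.72, adjusted p = 0.0399) became 3.42 without the former and 0.62, not called, without the latter. It was also lost without MG NP replicates 2 (1.59) or 4 (1.52) alone, without T NP replicates 1 (1.99), 2 (1.97) or 3 (1.83), with T NP replicates 1 and 2 averaged (1.98), with edgeR (1.48), and with the muscle covariate (0.02). *Cxcl12* read 6306, 4836, 3432 and 3796 in MG NP and 134, 195, 498 and 428 in T NP, with a fall of -4.02 (SE 0.42, adjusted p = 1.09e-04), -3.96 without the T cell-rich glands and -4.08 without the muscle-rich ones. It was called in all 22 alternatives, and was smallest with the muscle covariate (-3.03). *Cxcl14* (-1.95) and *Ackr3* (-2.29) fell with it.

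*Ccl24* read 133, 137, 149.5 and 243 in MG NP and 5.6, 6.1, 7.8 and 6.2 in T NP, far apart (-4.45, adjusted p = 1.57e-05). *Ccl11* read 522, 338, 319.5 and 631 in MG NP and 19.1, 40.3, 15.6 and 11.2 in T NP (-4.43, adjusted p = 6.67e-05). The receptor *Ccr3* was low in these glands too, at 15.3, 8.6, 86.6 and 19.4 against 1.1, 12.2, 0 and 3.7 in tumors. Its call (-2.76, adjusted p = 0.0295) was lost without MG NP replicates 3 (-2.11) or 4 (-2.81), without T NP replicates 1 (-2.53), 3 (-2.17) or 4 (-2.92), and without the T cell-rich glands (-2.04), and it was -3.41 without T NP replicate 2. *Ccr2* fell by -2.50 (adjusted p = 0.0023), with -1.97 without the T cell-rich and -3.04 without the muscle-rich glands. Of the CC ligands of that group, *Ccl2* (0.62), *Ccl7* (0.33), *Ccl8* (-0.61) and *Ccl12* (0.55) were not called.

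*Ccl6* read 1722, 1216, 1211 and 1599.9 in MG NP and 238, 478, 248 and 355 in T NP (-2.16, adjusted p = 1.79e-04). *Ccl9* read 1082, 841, 1034 and 1005 in MG NP and 262, 401, 159.8 and 306 in T NP (-1.88, adjusted p = 5.24e-04). Neither overlapped between tumors and glands. *Ccl5*, a T cell and NK cell product, read 1981, 89.9, 1825 and 72.3 in MG NP and 16.8, 42.7, 81.8 and 36.2 in T NP, with the glands split by their T cell transcripts. Its fall of -3.32 (adjusted p = 0.0374) was not called without the T cell-rich glands (-1.05) and was -5.60 without the muscle-rich ones. Removing only MG NP replicate 1 (-2.55) or 3 (-2.59), or T NP replicate 1 (-2.94), 2 (-3.37) or 4 (-3.30), also ended the call, as did averaging T NP replicates 1 and 2 (-3.11) and the muscle covariate (-5.58), and the fall was -4.03 without MG NP replicate 2 and -4.13 without replicate 4. *Ccl3* (1.99), *Ccl4* (0.44) and *Ccr1* (-0.15) were not called.

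*Ccl21a*, *Cxcr5* and *Ccr7* were higher in the T cell-rich than in the muscle-rich MG NP glands. *Ccl21a* read 1781, 17.1, 1755 and 142 in MG NP and 3.4, 62.2, 0 and 0 in T NP, where gland replicate 2 lay below tumor replicate 2. Its log2 fold change of -6.20 (SE 1.78, adjusted p = 0.0165) was -3.64 and not called without the T cell-rich glands, and -8.76 without the muscle-rich ones. With single libraries left out it was -5.35 without MG NP replicate 1 or 3, -7.55 without MG NP replicate 2, -7.52 without T NP replicate 2 and -5.53 without T NP replicate 3 or 4. *Cxcr5* read 398, 5.7, 876 and 145 in MG NP and 0, 23.2, 2.6 and 0 in T NP (-5.48, SE 1.58, adjusted p = 0.017), again -3.36 and not called, and -7.60, and it was -4.58 without MG NP replicate 3, -6.92 without MG NP replicate 2 and -6.47 without T NP replicate 2. *Ccr7* fell by -3.65 (adjusted p = 0.0453), with -1.07, not called, and -6.24 in these settings. Its call also ended with a larger pseudocount (-3.24), without MG NP replicate 1 (-2.88) or 3 (-2.70) or T NP replicate 1 (-3.36), 3 (-3.42) or 4 (-3.64), or with T NP replicates 1 and 2 averaged (-3.62). It was -4.55 without MG NP replicate 2 and -4.48 without replicate 4. *Cxcl13* read 456, 121, 1360.4 and 551 in MG NP and 4.5, 48.8, 39.0 and 27.5 in T NP and did not overlap, with gland replicate 4 above replicate 1 (-4.26, adjusted p = 0.00331, -3.46 without the T cell-rich and -5.06 without the muscle-rich glands, -4.89 without MG NP replicate 2 and -3.56 without T NP replicate 1).

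*Cxcr3* fell by -3.66 (adjusted p = 0.0106), which was -1.97 without the T cell-rich glands and -5.34 without the muscle-rich ones (-4.34 and -3.06 without MG NP replicate 2 or 3 alone), and *Cxcl9* fell by -2.52 (adjusted p = 0.008). *Cxcr6* (-2.84), *Ccr9* (-4.22), *Ccr6* (-3.12), *Cxcl17* (-3.12) and *Xcr1* (-1.60) fell as well with all glands. Without the T cell-rich glands *Cxcl9* was -1.42, *Cxcr6* -1.47, *Ccr9* -2.64 and *Cxcl17* -3.77, and the calls of *Ccr6* (-1.22) and *Xcr1* (-0.80) were lost. Without the muscle-rich glands the values were -3.63 for *Cxcl9*, -4.20 for *Cxcr6*, -5.81 for *Ccr9*, -5.02 for *Ccr6*, -2.47 for *Cxcl17* and -2.40 for *Xcr1*. With the muscle covariate *Ccr6* (-5.06) and *Cxcl17* (-1.76) were not called. *Ccr6* was also not called without MG NP replicates 1 (-2.45) or 3 (-2.52) or T NP replicates 1 (-2.70), 3 (-3.01) or 4 (-3.29) or with T NP replicates 1 and 2 averaged (-2.95), and was -3.92 without MG NP replicate 2. *Ccr9* was -3.59 without MG NP replicate 1 and -4.97 without replicate 4. *Ccr10*, a receptor of skin-homing T cells and plasma cells, read 61.0, 11.4, 23.8 and 14.2 in MG NP and 2.2, 0, 0 and 2.5 in T NP, where all tumors together held 4 reads, a ratio of 22.7 (counting interval 8.85 to 83.2). The atypical receptors *Ackr1* (-4.20), *Ackr2* (-2.94), *Ackr3* and *Ackr4* (-4.45) fell without overlap, and *Ackr1* was -4.11 without the T cell-rich glands and -4.29 without the muscle-rich ones. Leaving out the T cell-rich glands gave 8 higher and 20 lower of 46 members, against 3072 and 4634 of 18812 genes. Leaving out the muscle-rich ones gave 2 and 33 of 51 members, against 2515 and 4556 of 18934 genes. With T NP replicates 1 and 2 averaged, as their sample names share an animal number, 3 members were higher and 24 lower, against 2526 and 4453 of 18596 genes. Leaving out MG NP replicate 4 alone gave 2 higher members, against 2487 of 18213 genes.

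**Figure D2:**
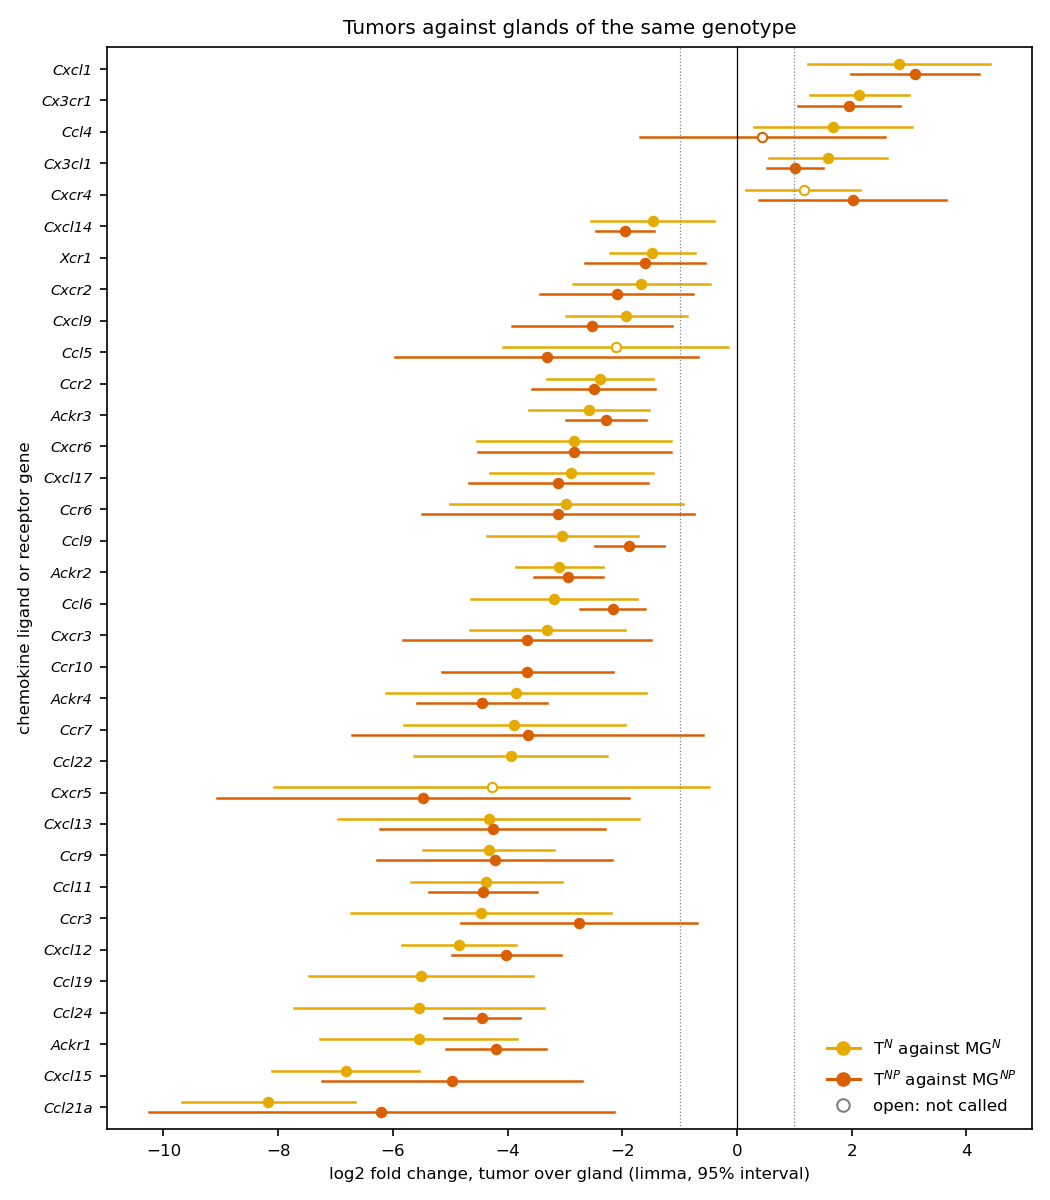
Log2 fold changes with 95% limma intervals of the members called in T N against MG N or in T NP against MG NP (4 samples per group), with open symbols where the member was not called and dotted lines at a 2-fold change. Most members lie left of the lower line in both comparisons, down to -8.17 for *Ccl21a* in T N, and *Cxcl1* lies farthest right at 2.83 and 3.10.

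Whether the difference between tumor and gland itself differed between the genotypes was tested as an interaction, the change in NP minus the change in N, over 16 samples. It gave 0 calls among 50 members and 0.0% higher and 0.0% lower calls among all 19367 genes tested with limma. An unadjusted p under 0.05 was reached by 0 members and by 1536 of all genes. DESeq2 and edgeR on the recovered reads also called 0 members, while of all 19367 genes DESeq2 called 50 higher and 277 lower, and edgeR 0. For the genes called in only 1 of these comparisons, the interaction was -1.23 for *Ccl4* (adjusted p = 0.868), 0.86 for *Cxcr4* (0.881), -1.21 for *Ccl5* (0.908) and -1.2 for *Cxcr5* (0.955). *Ccl19* and *Ccl22* were not tested in T NP against MG NP nor *Ccr10* in T N against MG N, and their interactions were 1.0 (0.951), -0.08 (0.998) and -1.36 (0.739). *Ccl9* had the lowest adjusted p of the members, 0.714, with a value of 1.17 (95% interval -0.27 to 2.62). The intervals reached a median of 2.06 to either side, so a 4-fold difference would lie within many of them.

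MG NP against MG N compares glands with mutant and wild-type p53 in fibroblasts, although 3 of the 4 MG N glands also lack Cre. No chemokine member was called. The members with the lowest p-values were the eosinophil receptor *Ccr3*, its ligands *Ccl24* and *Ccl11*, and the macrophage ligands *Ccl6* and *Ccl9*, all with lower values in MG NP. Of 47 members tested with limma, 0 were higher and 0 lower, where 0.0% and 0.0% of all 18563 genes were called. An unadjusted p under 0.05 was reached by 5 of the 47 members and by 1950 of all 18563 genes. With edgeR and DESeq2, 0 members were called. Of the same 18563 genes, edgeR called 0 and DESeq2 404 higher and 115 lower. *Ccr3* read 152, 162, 275 and 48.4 in MG N, with 15.3, 8.6, 86.6 and 19.4 in MG NP, where 3 of 4 MG NP glands lay below every MG N gland (-2.56, 95% interval -4.28 to -0.85, adjusted p = 0.337). Without MG NP replicate 3, the highest of its group, *Ccr3* was called lower at -3.21 (adjusted p = 0.0467, range over its alternatives 0.00794 to 0.617). Without that gland 297 genes were called higher and 21 lower of 18910. *Ccl9* did not overlap, at 1163 to 3054 in MG N and 841 to 1082 in MG NP (-0.89, 95% interval -1.56 to -0.22, adjusted p = 0.353). *Ccl24* (-1.23), *Ccl6* (-0.96) and *Ccl11* (-0.82) overlapped, and macrophage markers summed to 15118 to 22677 in MG NP and 21789 to 57878 in MG N.

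Among glands without the T cell-rich libraries (3 MG N, 2 MG NP), 4 members were lower in MG NP: *Ccr3* (-3.77, adjusted p = 0.00794), *Ccl7* (-2.35, 0.0297), *Cxcl10* (-2.08, 0.0297) and *Ccl22* (-2.37, 0.0437). Of all 19123 genes tested there, 915 were higher and 140 lower. The 2 MG NP glands left there are the muscle-rich ones. Without those instead, 0 members were called in either direction, with *Ccl5* at 3.43 and *Ccl21a* at 2.11. The 95% intervals of the members reached from 0.55 to 4.34 to either side of the estimate (median 1.38), so that for many genes a 2-fold difference was not detectable.

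T NP against T N compares tumors by the p53 of their fibroblasts. No member was called. Of 33 members tested with limma, 0 were higher and 0 lower, where 0.0361% of all 16638 genes were higher and 0.00601% lower. With edgeR and DESeq2, 0 members were called, with 51 higher and 34 lower of all genes in DESeq2 and 0 in edgeR. An unadjusted p under 0.05 in limma was reached by 1 member and by 1210 of all 16638 genes. That member was *Ccl28*, a ligand of mucosal epithelium, at 43.2, 34.8, 82.8 and 19.8 in T N and 72.9, 528, 105 and 57.4 in T NP. T NP replicate 2 alone was far above all tumors, and the log2 fold change of 1.61 (adjusted p = 0.686) was 0.92 without it. *Cxcl1* differed by 0.18 (95% interval -1.33 to 1.68), *Cxcr4* by 0.54 (-0.44 to 1.52), *Cxcl12* by 0.53 (-0.75 to 1.80) and *Cx3cr1* by -0.20 (-0.95 to 0.55). Intervals of the 33 members reached a median of 1.16 to either side. If T NP replicates 1 and 2 came from 1 animal, these intervals and those of the interaction may be too narrow. With these replicates averaged, 0 members were called here and 0 in the interaction, as were 0 of all 16939 and 19836 genes.

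The glands of tumor-bearing mice were compared with glands of wild-type mice. Inflammatory ligands of epithelium and activated macrophages, led by *Cxcl1*, *Cxcl2*, *Ccl3* and *Ccl4*, were far lower in MG N than in MG WT, and so were *Cx3cl1*, *Cxcl10*, *Cxcl14* and *Ccl2*. The macrophage ligands *Ccl6* and *Ccl9*, the eosinophil ligand *Ccl24* and several signaling receptors of leukocytes were higher. MG NP differed from MG WT in a like way, and since the 3 MG WT glands serve in both comparisons, their values are set side by side and are not independent. MG N against MG WT gave 14 higher (28.0%) and 11 lower (22.0%) of 50 members tested, against 19.1% and 17.9% of all 19017 genes. MG NP against MG WT gave 8 higher (15.7%) and 12 lower (23.5%) of 51, against 16.4% and 16.2% of 19065 genes. Ligands went both ways, with 6 higher and 10 lower of 30 in MG N and 4 higher and 11 lower of 30 in MG NP.

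*Cxcl1* read 1534, 1807 and 2585 in MG WT, while the 8 other glands ranged over 12.9 to 63.7. Its log2 fold change was -6.10 in MG N (SE 0.43, adjusted p = 1.69e-05) and -6.20 in MG NP (SE 0.44, adjusted p = 1.34e-04). *Cxcl2* read 274, 213 and 267 in MG WT, 5.1, 3.4, 5.6 and 2.1 in MG N, with 3.8, 0, 14.1 and 1.3 in MG NP. No gland of the tumor-bearing mice came near the wild-type ones, with changes of -5.69 (adjusted p = 7.32e-06) and -6.13 (adjusted p = 0.00144). *Cxcl15* read 2599, 717 and 1439.5 in MG WT and fell by -2.09 in MG N (not called in a single fit of all groups, -2.09) and -3.03 in MG NP. In MG NP that call was lost without MG WT replicates 1 (-2.57) or 3 (-3.0), and without MG NP replicate 2 it was -3.67. *Cxcl2* in MG NP was -5.51 without replicate 2 and -6.82 without replicate 3. With the muscle covariate *Cxcl2* (-1.40), *Cxcl15* (-5.55) and *Cxcr2* (4.34) were not called in MG NP. The receptor *Cxcr2* rose by 2.33 (adjusted p = 0.00817) from 17.9, 46.9 and 36.2 in MG WT, and by 2.28 in MG NP (adjusted p = 0.0306). The latter call was lost without MG WT replicates 1 (1.89), 2 (2.56) or 3 (2.38) or MG NP replicate 3 (2.12). Neutrophil markers stood at 128 to 302 in MG WT, 464 to 1084 in MG N and 286 to 11266 in MG NP.

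*Ccl3* and *Ccl4*, CC ligands from activated macrophages and T cells, followed the same course. *Ccl4* read 239, 252 and 154 in MG WT, then 5.1, 1.1, 8.5 and 13 in MG N, then 24.8, 1.4, 28.2 and 2.6 in MG NP (-5.02, adjusted p = 2.39e-04, and -4.55, adjusted p = 0.00717). *Ccl3* read 147, 155 and 87.8 in MG WT, 10.2, 5.7, 0.9 and 15.4 in MG N, with 13, 1.4, 10.8 and 0 in MG NP (-4.18 and -4.82). All wild-type glands were above all others in both genes. *Ccl3* was -3.56 without MG N replicate 3 and -4.09 without MG NP replicate 4, and *Ccl4* -3.93 without MG NP replicate 2. In MG NP, *Ccl4* was -6.16 without the T cell-rich glands and -2.95 without the muscle-rich ones, but 0.07 when the fit held the muscle score as covariate, a score that itself separates MG NP from MG WT.

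*Ccl6*, *Ccl9* and *Ccl24* lay at the other end. *Ccl6* read 54.2, 55.6 and 90.9 in MG WT against 1211 to 4816 in the 8 other glands, with changes of 5.39 (SE 0.39, adjusted p = 1.85e-05) and 4.43 (SE 0.25, adjusted p = 5.68e-05). *Ccl9* read 50.7, 59.5 and 92 in MG WT and rose by 4.79 (adjusted p = 2.12e-05) and 3.90 (adjusted p = 7.41e-05). *Ccl24* read 1.3, 7.3 and 9.3 in MG WT against 133 to 862, with 6.03 (adjusted p = 1.04e-04) and 4.80 (adjusted p = 7.25e-04). None of these overlapped. Without MG WT replicate 1, where it was lowest, *Ccl24* was 5.35 and 4.12. Macrophage markers moved with them, from 4095 to 5005 in MG WT to 15118 to 57878, as did fat.

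**Figure D3:**
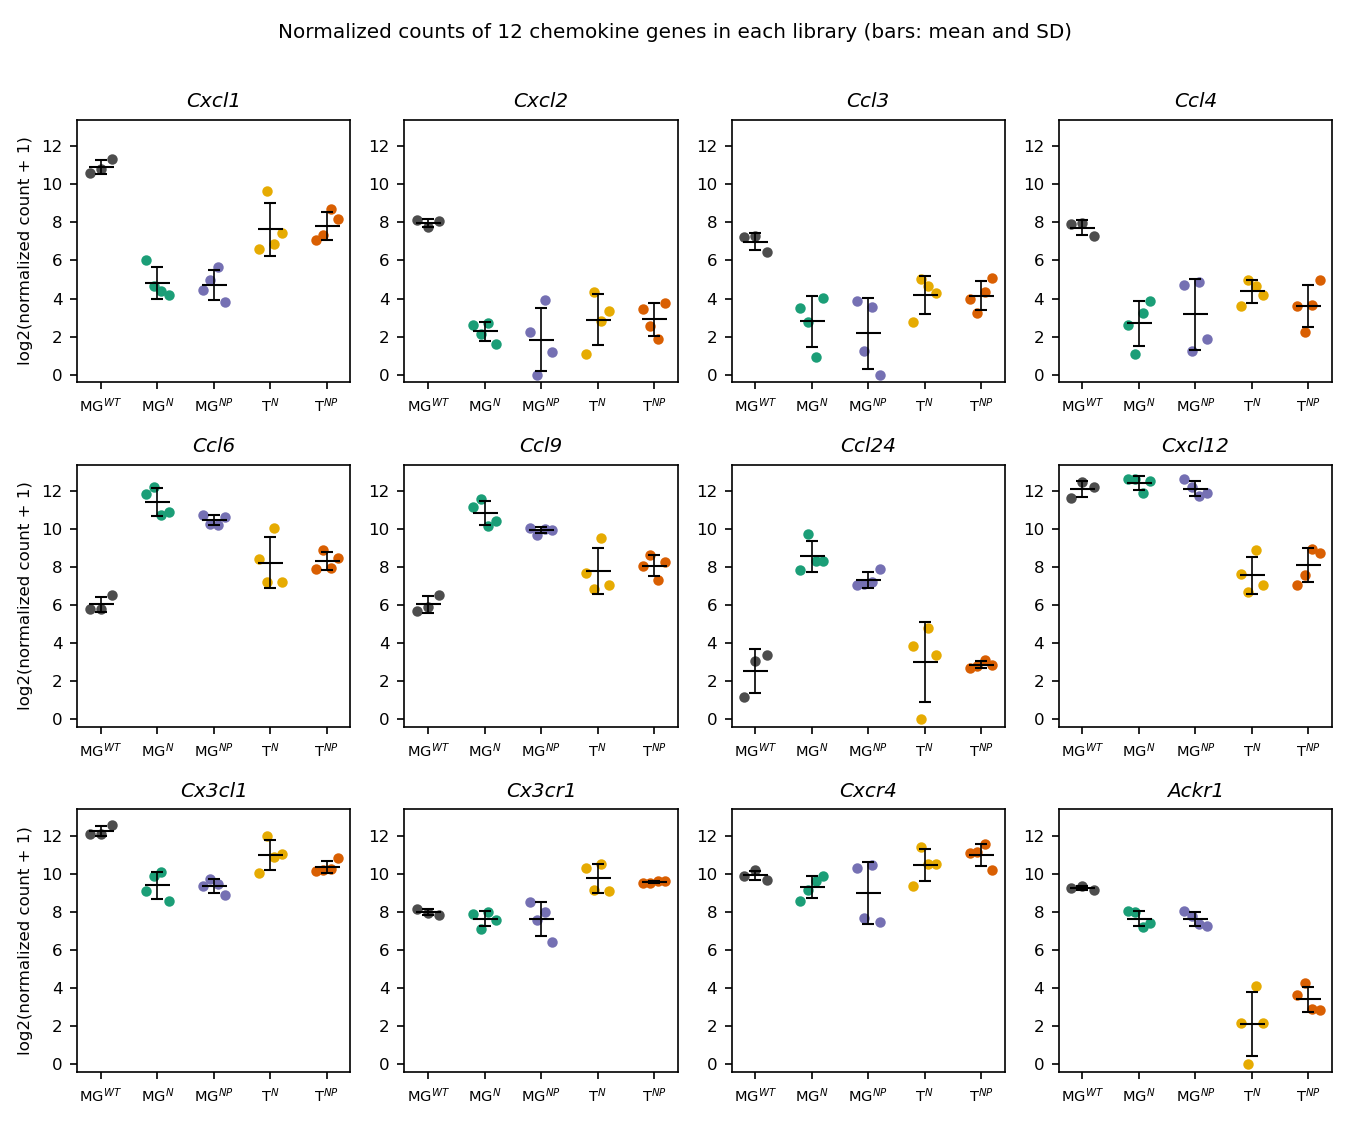
Normalized counts on a log2(count + 1) axis of 12 members in each of the 19 libraries by group, with the mean and SD of the log2 values. *Cxcl1* and *Cxcl2* are highest in MG WT, *Ccl6*, *Ccl9* and *Ccl24* in MG N and MG NP, and *Cxcl12* and *Ackr1* are lowest in tumors.

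Other receptors called higher in MG N included *Ccr3* (3.99), *Ccr2* (2.75), *Cxcr3* (2.42), *Ccr9* (2.02) and *Ccr1* (1.91), with the scavenger *Ackr2* (2.67). In MG NP the same fit gave 2.77 for *Ccr2*, 1.72 for *Ccr1* and 2.41 for *Ackr2*, all called. *Ccr3* (1.43), *Cxcr3* (2.73, adjusted p = 0.053) and *Ccr9* (1.90) were not called there, and the direct comparison of MG NP and MG N called none of them. *Ccr9* in MG N was lost without MG WT replicates 1 (1.84) or 3 (1.80), and *Ccr1* in MG NP without MG WT replicates 2 (1.46) or 3 (1.79) or without the T cell-rich glands (1.19). Ligands called higher were *Ccl8* (2.70) and *Ccl11* (1.16) in MG N and *Ccl28* in MG N and MG NP (3.15 and 3.29). *Ccl11* was not called with all groups in a single fit (1.16), nor without MG WT replicate 1 (0.94) or MG N replicate 2 (1.0), and *Ccl28* in MG N was 2.09 and in MG NP 2.24 without MG WT replicate 3, where it read 0. In MG NP it was 2.59, not called, without the T cell-rich glands. *Ccr3* in MG N was 4.65 without MG WT replicate 3.

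Further ligands called lower were *Cx3cl1* (-2.85 in MG N and -2.90 in MG NP), *Cxcl10* (-2.80 and -3.69), *Ccl2* (-2.74 and -3.46), *Cxcl14* (-2.58 and -2.53) and *Cxcl16* (-2.02 and -2.02). *Cx3cl1* read 4447, 4345 and 6109 in MG WT, above the 383 to 1090.3 of MG N and MG NP. *Cxcl14* read 4867, 7594 and 5923 in MG WT and 656 to 1465. Luminal and basal epithelial markers were lower in these glands by the sums given above. *Ackr1* fell by -1.59 and -1.64, from 564 to 651 in MG WT to 146 to 265. *Ccl7* was called lower in MG NP alone (-2.51, against -1.39 in MG N), at -3.53 without MG WT replicate 1, and not without MG WT replicates 2 (-2.16) or 3 (-1.85) or MG NP replicates 1 (-2.64), 2 (-2.49) or 4 (-2.22), nor without the muscle-rich glands (-2.05). Its difference between MG NP and MG N was -1.12 (adjusted p = 0.662). *Cxcl12* was alike in all glands, at 3195 to 5688 in MG WT and 3432 to 6388 in the others (0.31 in MG N, 95% interval -0.26 to 0.88).

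Which MG NP glands were used changed the comparison with MG WT. Without the T cell-rich glands 7 members were higher and 23 lower, and without the muscle-rich glands 22 were higher and 11 lower, of 51 tested in each. All genes gave 3994 higher and 4080 lower of 19277 in the former setting, and 3599 and 3109 of 19272 in the latter. With the muscle covariate 3 members were higher and 3 lower, against 910 and 1240 of all 19065 genes. Of the calls with all glands, only those of *Ccl6*, *Ccl9*, *Cx3cl1*, *Cxcl1* and *Cxcl14* were kept with the covariate, where *Ccl3* was -0.89, *Ccl2* -0.47, *Cxcl10* -0.62 and *Cxcl16* -0.11. Other calls were lost with values near those before or larger: *Ccl24* (4.49, against 4.80 with no covariate), *Ccr2* (3.47, 2.77), *Ccr1* (2.91, 1.72), *Ccl28* (5.39, 3.29) and *Ackr1* (-1.92, -1.64). *Ccl5* moved from -1.08 without the T cell-rich glands to 3.46 without the muscle-rich ones, *Ccr7* from -3.93 to 1.24 and *Cxcr3* from 1.04 to 4.41. *Cxcl1* (-6.54 and -5.87) and *Cx3cl1* (-2.97 and -2.84) were lower in both these settings.

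Across the 11 glands, the genes of lymphoid tissue varied widely within groups. *Ccl21a* read 445, 1499 and 1293 in MG WT, 306, 200, 375 and 1201 in MG N, with 1781, 17.1, 1755 and 142 in MG NP. Its partner *Ccr7* read 214, 500.3 and 310.5 in MG WT, 115, 41.4, 127 and 519 in MG N, with 634, 18.6, 916 and 22.0 in MG NP. In MG NP, both genes were high in the T cell-rich replicates 1 and 3 and low in the others. *Ccl19* read 30.3, 134 and 73.9 in MG WT, 67.5, 13.8, 42.3 and 298 in MG N, with 553, 8.6, 243 and 7.7 in MG NP. *Cxcr5* read 48.2, 151 and 111 in MG WT, 246, 1.1, 68.6 and 252 in MG N, with 398, 5.7, 876 and 145 in MG NP. The *Ccr4* ligand *Ccl22* read 53.7, 169 and 59.4 in MG WT, 49.7, 28.7, 66.7 and 185 in MG N, with 362, 7.1, 244 and 9.0 in MG NP. Each of these was highest in MG N replicate 4 among the MG N glands, and none was called between gland groups with all libraries used.

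**Figure D4:**
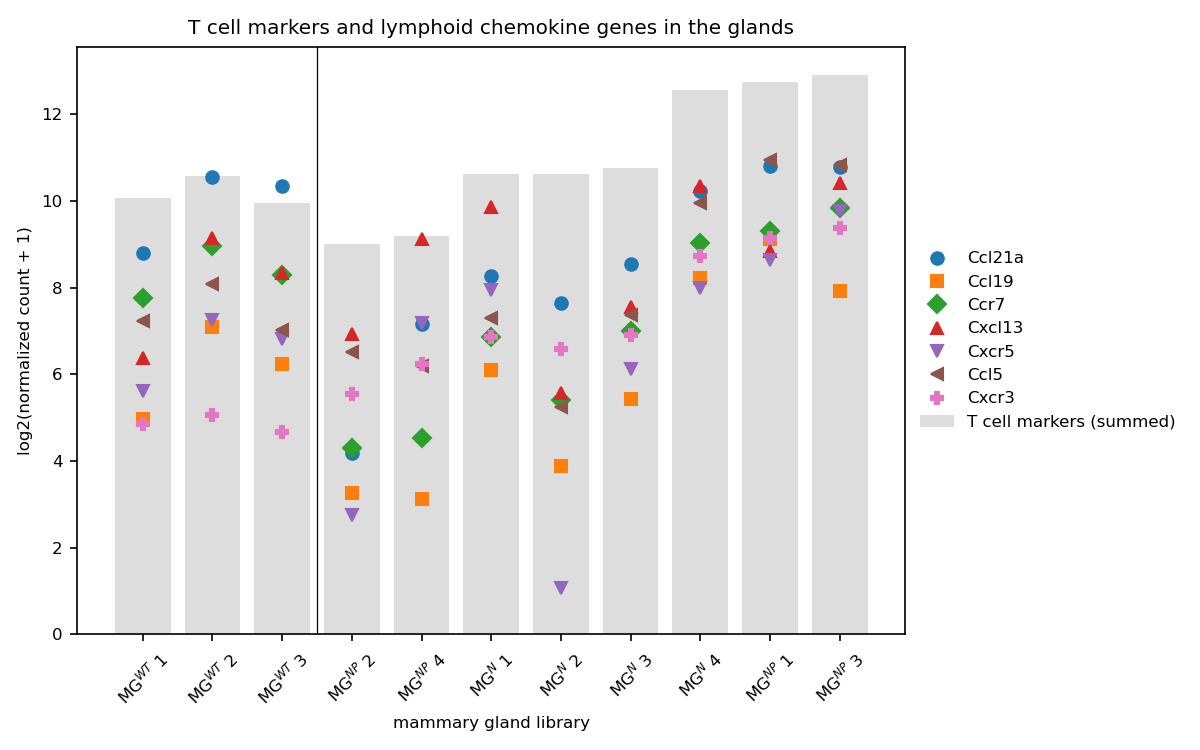
Bars give the summed normalized counts of 10 T cell markers in the 11 glands on a log2 axis, and points give *Ccl21a*, *Ccl19*, *Ccr7*, *Cxcl13*, *Cxcr5*, *Ccl5* and *Cxcr3* in the same glands, with MG N and MG NP ordered by the T cell sum. The 3 glands with the highest T cell sums (6033 to 7678) hold the highest values of *Ccl19*, *Ccr7*, *Ccl5* and *Cxcr3*.

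Other genes of the pathway were followed with a list of 58 ligands, receptors and intracellular components, of which 56 were in the table. T N against MG N had 4 higher and 21 lower of 54 tested, and T NP against MG NP 7 higher and 21 lower of 53. All genes tested gave 12.8% higher and 22.3% lower in the former and 14.7% and 24.0% in the latter. *Pf4*, a CXC chemokine of platelets and macrophages, rose from 9.0 to 14.6 in MG WT to 188 to 1029 in MG N and MG NP (5.44 and 4.40) and fell to 25.7 to 197 in tumors (-2.99 and -2.07). *Ppbp*, likewise a platelet chemokine, changed by 2.76 and 2.29 in the glands and -2.38 in T N. The chemerin gene *Rarres2* and its receptor *Cmklr1* took the same course, with 4.04 and 2.02 in MG N against MG WT and -4.46 and -3.18 in T N against MG N. *Gpr182*, an atypical receptor of endothelium, fell by -5.04 in T N and -4.26 in T NP. The chemerin-binding receptor *Ccrl2* went the other way, lower in MG N and MG NP than in MG WT (-2.25 and -2.0) and higher in T N and T NP than in glands (1.56 and 1.02).

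Signaling components of leukocytes fell in both tumor comparisons, among them *Rgs18* (-4.09 and -3.33), *Dock2* (-2.85 and -2.79), *Rac2* (-2.35 and -2.73) and *Was* (-1.52 and -1.92). The inhibitory G protein subunit *Gnai1* fell by -6.24 and -5.13, while *Gnai2* (0.41 and 0.87) was not called. *Elmo1* (1.40 and 1.40) and *Tiam1* (1.87 and 1.83), which activate Rac, and the heparan sulfate carrier *Sdc4* (2.37 and 2.32) rose in T N and T NP. *Gnai3* (1.10), *Gnb2* (1.18) and *Pik3cg* (2.47) were called higher in T NP, and in T N they were 0.71, 0.88 and 1.42. In MG N against MG WT, 17 of 55 were higher and 8 lower, where all genes gave 19.1% and 17.9%. In MG NP against MG WT 8 were higher and 9 lower, where all genes gave 16.4% and 16.2%. *Rgs1* and *Rgs16*, brakes on G protein signaling that are induced on activation, changed by -3.79 and -4.46 in MG N, with -4.10 and -4.00 for MG NP. MG NP against MG N, T NP against T N and the interaction had 0 calls on this list with limma. At an unadjusted p under 0.05 were 6 of 55, 4 of 51 and 4 of 55 genes. Of all genes, 1950 of 18563, 1210 of 16638 and 1536 of 19367 reached that p, in the same order.

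Many members lie in clusters, given here by GRCm38 positions. On chromosome 11, from 83525778 to 83664683, *Ccl5*, *Ccl9*, *Ccl6*, *Ccl3* and *Ccl4* are neighbors, and in both comparisons with MG WT *Ccl9* and *Ccl6* were called higher while *Ccl3* and *Ccl4* were called lower. From 82035571 to 82305690 of that chromosome lie *Ccl2*, *Ccl7*, *Ccl11*, *Ccl12*, *Ccl8* and *Ccl1*, where only *Ccl11* was called in the tumor comparisons, lower in T N and T NP. On chromosome 5, from 90759360 to 90905938, *Cxcl5*, *Cxcl3*, *Cxcl15*, *Cxcl1* and *Cxcl2* are neighbors, and *Cxcl15* was lower and *Cxcl1* higher in T N than in MG N and in T NP than in MG NP. *Cxcl9* and *Cxcl10* follow at 92321347 to 92348889. On chromosome 9, the receptors *Ccr9*, *Cxcr6*, *Xcr1*, *Ccr3* and *Ccr2* lie near each other and were lower in T N and T NP, though not every receptor of that stretch was called. On chromosome 8, from 94745590 to 94812036, *Cx3cl1* lies between *Ccl22* and *Ccl17*, and in T N *Ccl22* was lower and *Cx3cl1* higher.

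Promoters were read from RefSeq for the GRCm38.p6 build, as the 250 bases before the gene start. They were found for 43 of the 57 members with reads and are missing for, among others, *Ccl2*, *Ccl4*, *Ccl5*, *Ccl7*, *Ccl11*, *Ccl24*, *Ccl26*, *Ccr7*, *Ccr10*, *Cxcl5*, *Cxcl16*, *Cxcl17* and *Cxcr5*. The core GGGANTTTC of the NF-kB site, on either strand, was in 6 of the 43 (14.0%), which were *Cxcl1*, *Cxcl2*, *Cxcl3*, *Cxcl9*, *Ccr3* and *Cxcr2*, and in 264 of 27025 promoters of all genes (0.977%). The core GAAANNGAA of the interferon-stimulated response element, on either strand, was in 8 of the 43 (18.6%), which were *Ccl1*, *Ccl3*, *Ccl19*, *Ccr2*, *Cxcl9*, *Cxcl10*, *Cxcl14* and *Cxcr1*, and in 1934 of all (7.16%). A match describes the sequence and does not show that a factor binds. The CXC promoters of chromosome 5 are shown because *Cxcl1* and *Cxcl2* had the largest falls from MG WT, and *Cxcl9* and *Cxcl10* differ in their calls while lying side by side. Each is written 5′ to 3′ on the strand of its gene, with the matched core in capitals: *Cxcl1* at chr5:90890995-90891244 (plus strand), *Cxcl2* at chr5:90903649-90903898 (plus), *Cxcl3* at chr5:90785851-90786100 (plus), *Cxcl9* at chr5:92328080-92328329 (minus) and *Cxcl10* at chr5:92348890-92349139 (minus).
Cxcl1: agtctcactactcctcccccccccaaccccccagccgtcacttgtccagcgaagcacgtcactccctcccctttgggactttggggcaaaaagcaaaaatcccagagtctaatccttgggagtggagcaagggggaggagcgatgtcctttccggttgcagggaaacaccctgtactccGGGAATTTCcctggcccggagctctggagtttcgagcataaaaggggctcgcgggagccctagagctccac
Cxcl2: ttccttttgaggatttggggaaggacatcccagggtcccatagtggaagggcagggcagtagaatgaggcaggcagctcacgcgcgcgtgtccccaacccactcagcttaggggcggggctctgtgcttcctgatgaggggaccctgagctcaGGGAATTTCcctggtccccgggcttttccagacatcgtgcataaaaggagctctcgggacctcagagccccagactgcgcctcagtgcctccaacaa
Cxcl3: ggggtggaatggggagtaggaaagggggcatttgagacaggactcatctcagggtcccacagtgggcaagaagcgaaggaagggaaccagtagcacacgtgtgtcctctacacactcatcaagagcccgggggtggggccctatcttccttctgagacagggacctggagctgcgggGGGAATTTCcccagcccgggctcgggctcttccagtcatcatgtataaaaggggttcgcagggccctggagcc
Cxcl9: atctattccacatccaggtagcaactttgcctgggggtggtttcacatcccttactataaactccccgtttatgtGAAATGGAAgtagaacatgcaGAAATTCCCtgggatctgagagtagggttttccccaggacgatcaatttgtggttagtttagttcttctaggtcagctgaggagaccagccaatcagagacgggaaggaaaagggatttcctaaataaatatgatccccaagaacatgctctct
Cxcl10: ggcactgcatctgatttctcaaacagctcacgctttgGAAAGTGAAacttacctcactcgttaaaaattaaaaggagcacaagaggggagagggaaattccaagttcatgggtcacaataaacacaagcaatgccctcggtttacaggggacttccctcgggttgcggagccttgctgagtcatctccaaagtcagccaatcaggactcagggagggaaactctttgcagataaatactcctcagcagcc
The NF-kB core GGGAATTTC lies 71 to 63 bases before the start of *Cxcl1*, 97 to 89 before that of *Cxcl2* and 73 to 65 before that of *Cxcl3*. *Cxcl9* has it on the other strand, 154 to 146 bases before the start, beside an interferon-response core at 175 to 167, and *Cxcl10* has an interferon-response core at 213 to 205. *Cxcl3* shares the core with its neighbors but ranged only over 0 to 3.8 normalized counts in the 19 libraries.

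These values come from 3 or 4 libraries of whole tissue per group, so which cells made a chemokine or carried a receptor cannot be read from them. Glands differed in their fat, muscle and lymphoid transcripts, and the MG WT libraries in depth as well, and the comparisons that use them carry these differences. Most MG N glands had another genotype than the T N tumors. Copies of *Ccl21a*, *Ccl19* and *Ccl27a* leave their levels uncertain, and genes whose exons overlap others, as in *Ackr1* and *Cxcl10*, may hold reads of both. Transcripts do not give the amount of secreted ligand or of receptor on the cell surface, and the genotype comparisons could have missed moderate changes.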

How the data were processed

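RNA-seq of 19 mouse samples was used. The deposited signal consists of normalized counts by the authors, from paired 75-base reads aligned to GRCm38 with TopHat2 (2.1.1) and Bowtie2 and divided by 1 DESeq2 size factor per library. The counting tool, its annotation and its use of strand are not given in the text or the sample records, which also name a total RNA kit where the methods of the paper name an mRNA kit. Dividing by the step of each library gave back whole reads (tolerance 0.05 reads) for 100.0% of values. In T N replicate 3 the step was too near 1 for this check. Depths are given with the results.

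Symbols, positions and exon lengths came from GENCODE release 21 (mouse), which matched 98.16% of identifiers and left 849 unmatched. Groups were taken from the sample records. Each comparison used the samples of its 2 groups, and the interaction 16 samples. Log2(normalized count + 1) was fitted with limma (3.58.1, lmFit and eBayes with a trend) in R 4.3.3, after a filter of 10 normalized counts in as many samples as the smaller group, with Benjamini-Hochberg adjustment over all genes tested and a call at an adjusted p under 0.05 and 2-fold. The pipeline was tested on simulated data. Counting intervals cover counting error only.

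Alternatives were pseudocounts of 0.5 and 5, no filter, a filter at a mean of 50, TMM scaling, edgeR (4.0.16, quasi-likelihood) and DESeq2 (1.42.0) on recovered reads, no fold threshold, 1 fit of all 5 groups, a block for the replicate number, leaving out each library, T NP replicates 1 and 2 averaged (their sample names share an animal number) and a covariate for skeletal muscle markers. Leaving out the T cell-rich or the muscle-rich glands was added after the data were seen. Members called in any comparison are named, apart from results of single genes that are not given here, and values in each sample are given for the 3 strongest rises and 3 strongest falls per comparison and for ligand and receptor groups. The members, the 16 marker lists and the pathway list were chosen with earlier results of these data known. Protein sequences were left out, since none were available.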

Additional observations from a re-analysis of the deposited data

Results flagged for a closer look

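In each group of 4, on log2(normalized count + 1), the gap between the highest or lowest sample and its nearest neighbor was compared with the group's range, and a sample was taken as distant where that ratio passed the 95% critical value for that size. Of 172 groups of values, 5 (2.91%) held a distant sample on that scale, where chance gives about 1 in 20. *Cx3cl1* in T NP replicate 4 was 1800.4 normalized counts, against 1148 to 1233 in the other tumors of its group. *Cxcl12* in MG N replicate 3 was 3783.7, against 5898 to 6388. *Cxcl15* in T NP replicate 3 was 33.8, against 1.2 to 2.4. *Cxcr3* in MG N replicate 4, the gland with the most T cell transcripts of its group, was 425.3, against 95.4 to 118.3. *Xcr1* in T N replicate 2 was 21.1, against 33.3 to 36.4.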

How the results depend on the processing

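Of 106 calls of a member in a pairwise comparison, 33 were lost in at least 1 alternative with their direction kept. By comparison these were 3 of 25 in MG N against MG WT, 14 of 20 in MG NP against MG WT, 4 of 30 in T N against MG N and 12 of 31 in T NP against MG NP. A further call, *Ccl4* in MG NP against MG WT, was lost and changed sign, at 0.07 with the skeletal muscle score as a covariate. That score does not overlap between MG NP and MG WT, nor between MG NP and T NP, so the covariate takes away part of any difference that moves with it.

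Counts of members called moved by more than 1.5 times as follows, and the cause was not tested. In T N against MG N, DESeq2 called 7 higher, where limma called 4, and of all 17950 genes 2564 and 2289. In T NP against MG NP (4 higher with all libraries), 1 was higher with the muscle covariate, 8 without the T cell-rich glands, 2 without the muscle-rich glands and 2 without MG NP replicate 4. Of all 17880 genes, 1716 were higher with the covariate, against 2625 without it. In MG NP against MG N, 4 were lower without the T cell-rich glands, where 0 were with all, and 1, *Ccr3*, without MG NP replicate 3. In MG NP against MG WT (8 higher, 12 lower), 14 were higher with DESeq2, 3 with the covariate and 22 without the muscle-rich glands. There, 3 were lower with the covariate and 23 without the T cell-rich glands. Of all 19065 genes, DESeq2 called 3977 higher, where limma called 3136. Counts over all genes for the other settings are given with the results above.

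With each library left out in turn, T N against MG N gave 3 to 6 higher and 23 to 28 lower, T NP against MG NP 2 to 5 higher and 23 to 29 lower, MG NP against MG N 0 higher and 0 to 1 lower, MG N against MG WT 12 to 14 higher and 11 to 13 lower, and MG NP against MG WT 6 to 12 higher and 10 to 12 lower. T NP against T N and the interaction kept 0 members in each direction. Over all genes (16883 to 19856 tested), T N against MG N gave 2083 to 2341 higher and 3661 to 4419 lower. T NP against MG NP gave 2401 to 2813 and 4069 to 4547, and MG NP against MG N 0 to 297 and 0 to 21. The ranges were 3432 to 3640 and 3114 to 3434 in MG N against MG WT, and 2404 to 3321 and 2524 to 3233 in MG NP against MG WT. T NP against T N gave 0 to 34 and 0 to 18, and the interaction had calls in both directions in some settings. With the replicate number as a block, 4 members were higher and 27 lower in T N against MG N, and 4 and 24 in T NP against MG NP. The counts of members were 14 and 14 in MG N against MG WT, 7 and 10 in MG NP against MG WT, and 0 in the genotype comparisons. Over all genes, the block gave 2181 higher and 3774 lower of 17950 in T N against MG N, and 2574 and 4123 of 17880 in T NP against MG NP. It gave 3511 and 3248 of 19017 in MG N against MG WT, 2467 and 2593 of 19065 in MG NP against MG WT, and 0 in the genotype comparisons. Calls lost with the block were *Ccl4* in T N against MG N (1.67), *Ccr3* (-2.76), *Ccr6* (-3.12) and *Ccr7* (-3.65) in T NP against MG NP, and *Ccl7* (-2.22), *Cxcl15* (-2.65) and *Cxcr2* (2.61) in MG NP against MG WT. TMM scaling moved the median of all genes by less than 0.1.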
